A study of Mus musculus with 6 samples.

Results

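Regulatory T cells are the branch of CD4+ T cells that holds immune responses back, and 8 genes that are classically high in them were followed here in T cells grown from pluripotent stem cells. The genes were Foxp3, Il2ra, Ctla4, Lrrc32, Nrp1, Gpr83, Izumo1r and Capg. They were taken by name from a deposited expression table of 23420 rows, by a rule that sets no threshold on their values. The table held 7 of the 8 under these names, and Izumo1r was listed under its older symbol Folr4, a synonym in the RefSeq gene table. All 8 passed the filter on low values (at least 1 TPM in at least 3 libraries), which 10476 genes passed in all. TPM is a transcript abundance per unit of transcript length, scaled to the same total in each library.

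The 6 libraries held polyA RNA of induced T (iT) cells from mouse spleen, 3 of CD4 single-positive (CD4SP) cells and 3 of CD8 single-positive (CD8SP) cells, each made from 1000 sorted cells. All of the cells derived from iR9-PSC, mouse pluripotent stem cells of C57BL/6 background that carry a doxycycline-inducible Runx1-p2a-Hoxa9 cassette. Blood progenitors made from them in culture were transplanted into irradiated B-NDG mice, 8 weeks old, without further doxycycline, and the spleens were taken at week 5. B-NDG mice are immunodeficient and lack mature T, B and NK cells of their own. According to the study's methods the sort kept CD45.2+ cells, which come from the donor, and took CD4+ or CD8+ cells. It used neither CD25 nor Foxp3, so each library mixes regulatory cells, if present, with all other cells of its gate. The labels do not say whether the replicates came from separate recipients, so the p-values measure the spread between these libraries. Each library carried the lineage genes of its label, with Cd4 and Zbtb7b summing to 315 to 370 TPM in CD4SP against 1.71 to 3.29 TPM in CD8SP, and Cd8a and Cd8b1 to 24.9 to 38.9 TPM against 3236 to 3562 TPM. CD4SP replicate 2 stood apart in its Foxp3 level, and the Foxp3 difference, share and profile are given with and without it.

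Foxp3 is the transcription factor that defines regulatory T cells, and people and mice without it develop severe autoimmunity. The other 7 genes encode proteins that such cells carry or use. IL-2 captured through CD25 keeps the cells alive and supports Foxp3 transcription. CTLA-4 removes costimulatory ligands from antigen-presenting cells, and GARP holds latent TGF-beta at the cell surface. Several of these genes, Il2ra, Ctla4 and Izumo1r among them, are also switched on in other activated or antigen-experienced T cells, so none of them marks a regulatory cell on its own.

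The stretches of DNA just before the transcription start were read for the members from RefSeq promoter entries on GRCm38.p6, the assembly also named mm10. Entries were found for 7 of the 8 genes, with 2 for Foxp3 and none for Lrrc32. Of each entry the 250 bases before the start were searched on both strands for TGTTTAC (forkhead), TGTGGT (RUNX), GGAAAA (NFAT), TTCNNNGAA (STAT), GGAAGT (ETS) and TGANTCA (AP-1). Shown are the 2 Foxp3 entries, because Foxp3 is the member whose values differed most between libraries of 1 group, and those of Il2ra and Ctla4, the receptors best known as its targets. They lie on the plus strand, at chrX:7579426-7579675 and chrX:7580233-7580482 for Foxp3, chr2:11642542-11642791 for Il2ra and chr1:60908775-60909024 for Ctla4. Capitals mark motif matches, read on either strand.
Foxp3 entry 1: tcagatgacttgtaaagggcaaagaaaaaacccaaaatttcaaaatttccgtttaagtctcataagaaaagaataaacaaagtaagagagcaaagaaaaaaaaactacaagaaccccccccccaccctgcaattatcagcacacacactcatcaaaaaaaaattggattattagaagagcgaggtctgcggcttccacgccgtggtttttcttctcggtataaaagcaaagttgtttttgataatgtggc
Foxp3 entry 2: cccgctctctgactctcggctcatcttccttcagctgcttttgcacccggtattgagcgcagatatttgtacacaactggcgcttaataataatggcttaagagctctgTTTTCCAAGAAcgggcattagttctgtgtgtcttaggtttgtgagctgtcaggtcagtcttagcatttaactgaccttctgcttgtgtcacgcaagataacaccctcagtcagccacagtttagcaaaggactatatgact
Il2ra: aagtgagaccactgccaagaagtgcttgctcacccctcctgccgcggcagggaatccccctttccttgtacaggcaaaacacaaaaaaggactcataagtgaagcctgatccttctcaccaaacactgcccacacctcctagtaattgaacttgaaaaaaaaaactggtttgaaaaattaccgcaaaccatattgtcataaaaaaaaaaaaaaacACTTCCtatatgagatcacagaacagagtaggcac
Ctla4: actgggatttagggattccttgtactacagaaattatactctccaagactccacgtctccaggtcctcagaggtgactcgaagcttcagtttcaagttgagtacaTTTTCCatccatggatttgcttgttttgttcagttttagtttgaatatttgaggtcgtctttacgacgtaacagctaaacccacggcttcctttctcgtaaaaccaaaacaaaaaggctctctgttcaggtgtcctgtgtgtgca

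Foxp3 entry 2 held an NFAT match starting 141 bases before the start, which overlaps a STAT match starting 139 bases before it. Foxp3 entry 1 held no match to any of the 6 motifs. Ctla4 held an NFAT match 145 bases before its start, and Il2ra an ETS match 35 bases before its start. Among the entries not printed, Izumo1r held a RUNX match at 127 bases, Capg an ETS match at 212 bases, and Nrp1 and Gpr83 held none. No entry held the forkhead or the AP-1 motif. Of 32536 RefSeq promoter windows of this length, 3.17% held the forkhead, 14.0% the RUNX, 20.4% the NFAT, 7.04% the STAT, 19.8% the ETS and 6.73% the AP-1 motif. The motifs are short and common, and a match is a description of these letters only.

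The comparison of CD4SP with CD8SP iT cells asks which genes set apart the populations that share a stem cell source, a host strain and an organ. It found 7 of the 8 members higher in CD4SP cells, with adjusted p under 0.05 and over 2-fold (limma on log2(TPM + 1), Benjamini-Hochberg adjustment over all 10476 tested genes). Of all tested genes, 7.92% were called higher in CD4SP and 1.8% lower. That is 830 of 1019 calls toward CD4SP, against 489 of 789 after median-of-ratios rescaling and 444 of 777 after quantile normalization. None of the 8 members was called lower. Foxp3 itself was not called in this fit, and its CD4SP libraries differed widely. In the same 7 genes every CD4SP library lay above every CD8SP library, as it did in 36.6% of all tested genes. In bulk RNA, more cells of a type and more RNA per cell cannot be told apart.

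**Figure D1:**
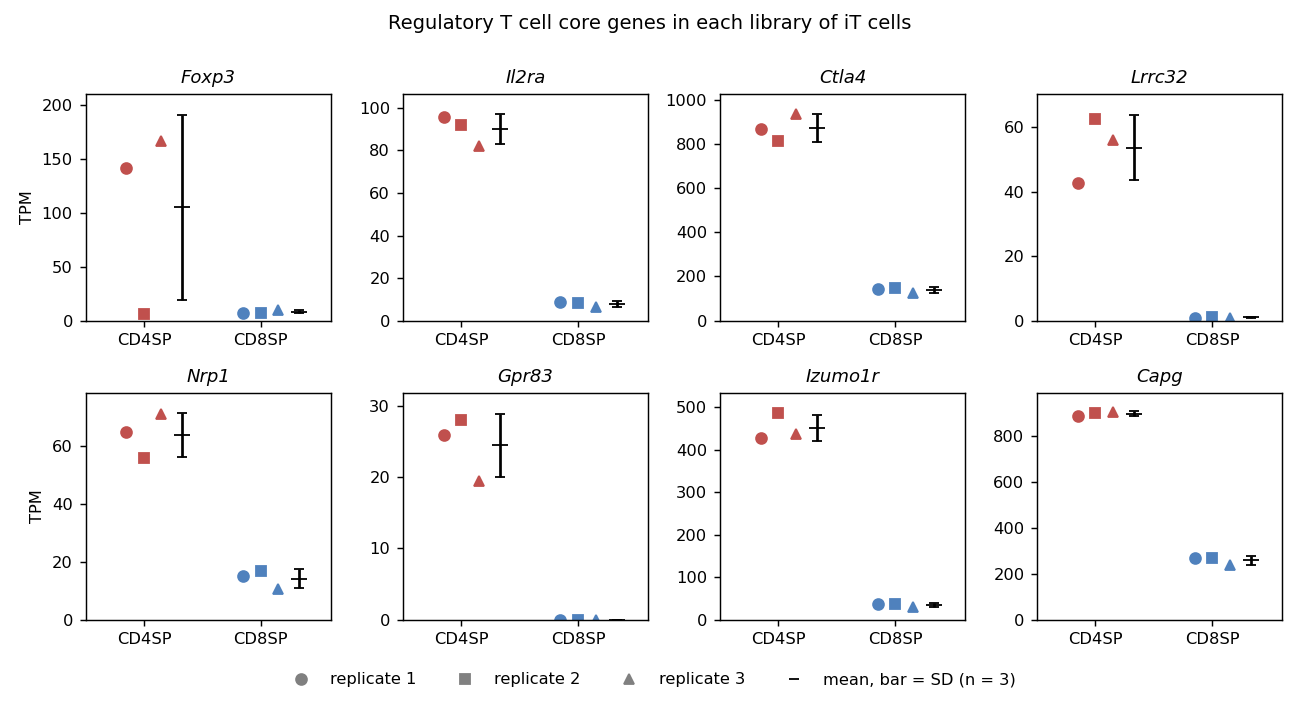
TPM of each core gene (vertical axes, each on its own linear scale from 0) in the 3 CD4SP and 3 CD8SP libraries (points, shaped by replicate number), with the mean and SD (n = 3). In 7 panels the CD4SP points stand clear of the CD8SP points, and in the Foxp3 panel CD4SP replicate 2 lies at 6.56 TPM, at the level of the CD8SP libraries.

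Foxp3 (X chromosome, 7573644 to 7595245, GRCm38, GENCODE M21 annotation) was listed at 142, 6.56 and 167 TPM in CD4SP replicates 1, 2 and 3. In the CD8SP libraries it was listed at 7.48, 7.48 and 10.05 TPM. CD4SP replicate 2 thus lay below every CD8SP library, while the other CD4SP libraries lay far above them. The CD4SP mean was 105 ± 86.3 TPM and the CD8SP mean 8.34 ± 1.48 TPM (SD, n = 3 each). The difference in log2(TPM + 1) was 2.61 (SE 1.01, 95% interval 0.30 to 4.93), with limma adjusted p 0.1005. Without CD4SP replicate 2 it was 4.06 (SE 0.174, limma adjusted p 9.436e-05). All 8 members were then called higher, against 9.57% of all tested genes in that fit. That library was singled out for its low Foxp3 value, so the SE and p-value of this fit are no independent test of Foxp3. Without CD4SP replicate 1 or 3 the difference was 1.945 or 1.826, and Foxp3 was not called (limma adjusted p 0.2618 and 0.2849). With all 6 libraries, Foxp3 was called with a replicate block (difference 2.61, limma adjusted p 0.04375), though pairing by replicate number was not shown. It was also called with library weights (3.65, limma adjusted p 0.001533).

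Il2ra encodes CD25, the alpha chain that gives the IL-2 receptor its high affinity (chromosome 2, 11642807 to 11693193). It was at 95.7, 92.0 and 82.1 TPM in CD4SP and at 8.77, 8.46 and 6.31 TPM in CD8SP libraries. The groups lay well apart, and the lowest CD4SP library stood above the highest CD8SP library by a wide margin. The difference in log2(TPM + 1) was 3.37 (SE 0.170, limma adjusted p 1.276e-05), and the ratio of the mean TPM values was 11.5. CD4SP replicate 2, the library with little Foxp3, was not low in Il2ra.

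Ctla4, the inhibitory receptor that competes with CD28 for CD80 and CD86, was the most abundant of the membrane receptors on the list (chromosome 1, 60887000 to 60915832). Its level was 866, 814 and 937 TPM in CD4SP libraries and 144, 150 and 124 TPM in CD8SP libraries. Its log2(TPM + 1) difference was 2.64 (SE 0.117, limma adjusted p 6.382e-06). The libraries of each group lay close together, and CD8SP cells still held 15.9% of the CD4SP mean TPM.

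Izumo1r encodes folate receptor 4, a surface protein of regulatory and anergic CD4+ T cells (chromosome 9, minus strand, 14885814 to 14903949). The table gave it 428, 485 and 438 TPM in CD4SP cells, against 38.1, 37.8 and 29.7 TPM in CD8SP cells. Its log2(TPM + 1) difference of 3.65 (SE 0.137, limma adjusted p 3.138e-06) came with a mean ratio of 12.8. CD4SP replicate 2 was the highest of the 6 libraries for this gene.

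Nrp1 encodes neuropilin-1, a semaphorin receptor carried by many thymus-derived regulatory cells (chromosome 8, 128358604 to 128503363). It was at 64.8, 56.1 and 71.3 TPM in CD4SP and at 15.2, 16.8 and 10.8 TPM in CD8SP libraries. The difference in log2(TPM + 1) was 2.1 (SE 0.195, limma adjusted p 0.0002757). Nrp1 was among the members with the most left in CD8SP cells, at 22.3% of the CD4SP mean TPM.

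Gpr83, a G protein-coupled receptor long used as a regulatory T cell signature gene, is encoded on chromosome 9 (14860210 to 14870789), next to Izumo1r. The CD4SP libraries held 25.9, 27.9 and 19.5 TPM of it, and every CD8SP library listed it at 0. An exact 0 in TPM can be a failed estimate and the depth is unknown, so no fold is given. Its call had limma adjusted p 1.276e-05, and the libraries of the groups did not overlap.

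Lrrc32 encodes GARP, the protein that docks latent TGF-beta on activated regulatory T cells (chromosome 7, 98489283 to 98502181). CD4SP libraries held 42.6, 62.5 and 56.0 TPM of it, against 0.912, 1.16 and 0.983 TPM for CD8SP libraries. The ratio of the means was 52.8, and the log2(TPM + 1) difference was 4.75 (SE 0.210, limma adjusted p 6.382e-06). Lrrc32 thus had the widest ratio of the 7 members with a level above 0 in both groups, and CD4SP replicate 2 held its highest value.

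Capg encodes a protein that caps the fast-growing ends of actin filaments (chromosome 6, 72544391 to 72562983). It was at 887, 899 and 906 TPM in CD4SP and at 271, 268 and 236 TPM in CD8SP libraries. The log2(TPM + 1) difference was 1.79 (SE 0.102, limma adjusted p 2.31e-05). Capg had the smallest difference of the 8 and the tightest CD4SP libraries, with a coefficient of variation of 1.045%. CD8SP cells held 28.8% of its CD4SP mean TPM.

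**Figure D2:**
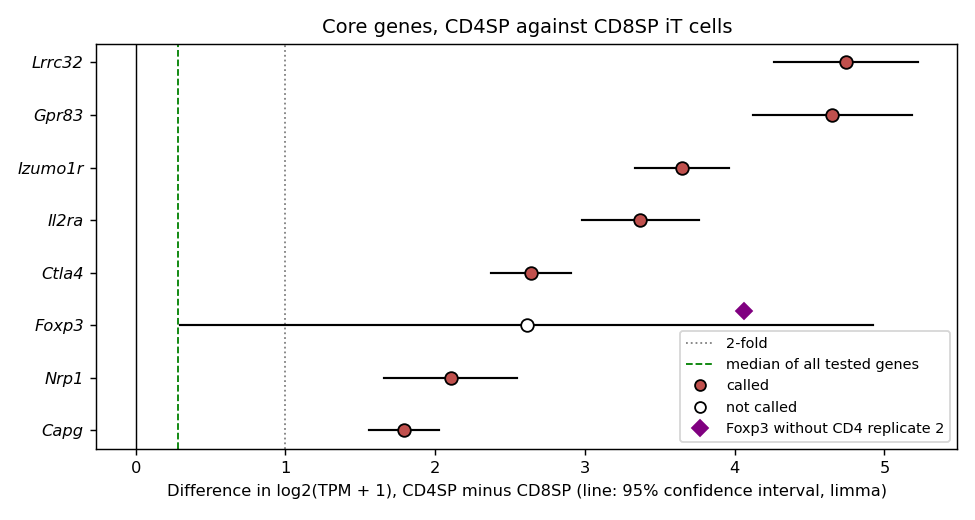
Difference in log2(TPM + 1), CD4SP minus CD8SP (horizontal axis), for each core gene with its 95% interval from limma; filled points were called, the open point (Foxp3) was not, the diamond is Foxp3 without CD4SP replicate 2, and the dashed line is the median of all tested genes, 0.284. The interval of Foxp3 runs from 0.30 to 4.93, while those of the 7 called genes lie wholly beyond 1.

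The median of all tested genes also leaned toward CD4SP, by 0.284 on the log2(TPM + 1) scale, and median-of-ratios rescaling brought that median to 0.0002. Relative to the median gene, the called members ranged from 1.51 for Capg to 4.46 for Lrrc32, and Foxp3 stood at 2.33. All 8 kept their direction under each of the scalings tried. Ribosomal protein genes took 24.2% to 28.8% of TPM in CD4SP and 32.2% to 36.0% in CD8SP libraries, and removing them left the same 7 members called. Summed over the 8 genes, the CD4SP libraries reached 2551, 2443 and 2677 TPM, against 485, 489 and 418 TPM for the CD8SP libraries. Without Foxp3 the CD4SP sums were 2410, 2437 and 2510 TPM, so CD4SP replicate 2 was not the lowest.

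In CD4SP cells the members fell in the order Capg, Ctla4, Izumo1r, Foxp3, Il2ra, Nrp1, Lrrc32 and Gpr83 by mean TPM. Capg and Ctla4 overlapped in their libraries, as did Foxp3 and Il2ra, and Nrp1 and Lrrc32. The other neighbours in this order did not overlap. Without CD4SP replicate 2 the Foxp3 mean was 154 TPM, still at place 4 and clear of Il2ra. In CD8SP cells the order was Capg, Ctla4, Izumo1r, Nrp1, Foxp3, Il2ra, Lrrc32 and Gpr83, and only Foxp3 and Il2ra overlapped. Nrp1 stood below Foxp3 and Il2ra by mean in CD4SP cells and above both in CD8SP cells. As a share of the CD4SP mean, the CD8SP mean ran from 1.89% for Lrrc32 to 28.8% for Capg among the members with a level above 0. These order and share values are descriptions and were not tested.

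The lineage gene Cd4 had 331, 281 and 279 TPM in CD4SP libraries and 0.104, 0 and 0 TPM in CD8SP libraries, and its CD8SP mean was 0.0117% of its CD4SP mean. The CD8SP share was 7.93% for Foxp3 (5.397% without CD4SP replicate 2), 8.73% for Il2ra and 7.81% for Izumo1r, and Gpr83 was listed at 0. In the other direction, mean Cd8b1 was 28.3 TPM in CD4SP and 2317 TPM in CD8SP libraries, a ratio (not a percentage) of 0.0122. Mean Cd8a was 1.82 TPM in CD4SP and 1116 TPM in CD8SP libraries, a ratio of 0.001628. The part of CD4SP cells in the CD8SP levels of the core genes was not tested.

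Foxp3 was the outlying member in CD4SP replicate 2. Its log2(TPM + 1) there was 4.36 lower than the mean of the other CD4SP libraries, and 8 of the 10476 tested genes (0.0764%) lay as far below or further, Foxp3 included. The other 7 members lay between -0.27 for Nrp1 and 0.35 for Lrrc32 on the same scale, around an all-gene median of -0.226. Genes at least 4-fold below both other CD4SP libraries on the TPM + 1 scale numbered 14 for replicate 1, 52 for replicate 2 and 13 for replicate 3. The 52 are 0.496% of tested genes, and Foxp3 is the only member and the only gene of any list used here among them. Of the 52 genes, 12 were at 10 TPM or more in all 3 CD8SP libraries. Those 12 include genes that most cells use, here chosen after their values were seen. The splicing factor gene U2af2 was at 34.4, 1.44 and 41.4 TPM in the CD4SP libraries and at 36.0, 39.4 and 45.4 TPM in the CD8SP libraries. Nkiras2, an NF-kB inhibitor partner, was at 32.4, 0 and 40.7 TPM in the CD4SP libraries. Low values of this kind in CD4SP replicate 2 were thus not confined to regulatory T cell genes. What produced the low Foxp3 value was not tested.

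**Figure D3:**
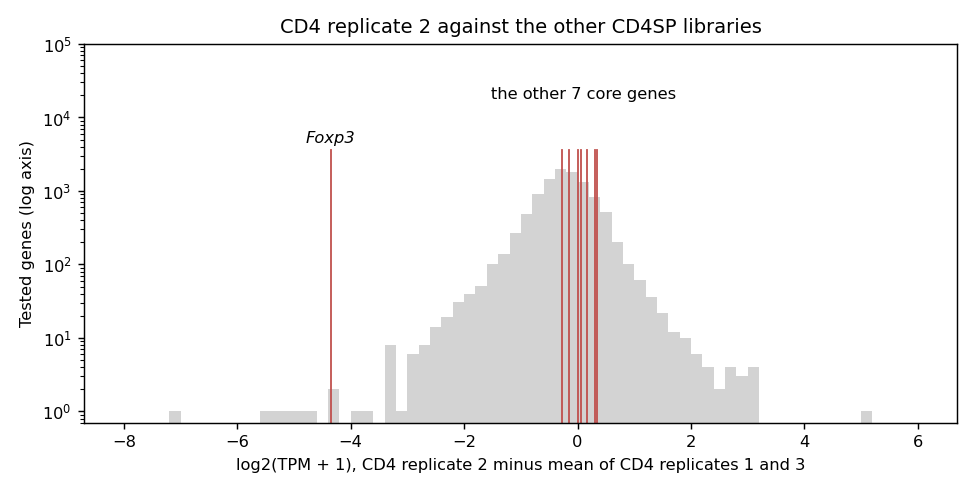
Histogram of all 10476 tested genes (vertical axis, number of genes, log scale) by log2(TPM + 1) in CD4SP replicate 2 minus the mean of CD4SP replicates 1 and 3 (horizontal axis), with red lines at the core genes. Foxp3 lies at -4.36 in the far left tail, and the other 7 core genes lie between -0.27 and 0.35, inside the bulk.

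The Foxp3 locus shares bases with its neighbours, and whether the authors' counting used strand is not given in the sources used here. In GENCODE M21 the gene overlaps the noncoding Gm36995 by 21602 bases, the antisense Flicr by 7384 bases, Ccdc22 by 1437 bases and Ppp1r3f by 640 bases. Gm36995 and Flicr were not matched in the table. Ccdc22 was at 20.1, 11.3 and 19.9 TPM in CD4SP and at 18.5, 19.1 and 12.6 TPM in CD8SP libraries. Ppp1r3f was at 8.34, 11.4 and 9.89 TPM in CD4SP and at 1.69, 2.03 and 1.77 TPM in CD8SP libraries. CD4SP replicate 2 thus had the lowest Ccdc22 of the 6 libraries and the highest Ppp1r3f. These overlaps are between whole gene spans, introns included. Without strand, reads of bases that transcripts of these 4 genes share with Foxp3 cannot be told apart from Foxp3 reads. At 95% identity or more over at least 200 bases, the longest Foxp3 transcript matched 1 other gene, Ccdc22, over 361 bases. By the same measure, no other gene's transcript matched the longest transcript of any other member.

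The profile of each member over the 6 libraries was set against the mean of the other 7 after standardising log2(TPM + 1). Pearson's r was 0.660 for Foxp3 and between 0.984 for Gpr83 and 0.998 for Ctla4 for the rest. Without CD4SP replicate 2, a setting chosen after seeing the data, it was 0.990 for Foxp3 and 0.989 to 0.9997 for the rest. The 5 tested genes most like the mean of the 8 members were Ikzf2 (r 0.9997), Dusp1, Ephx1, Chd4 and Glb1 (r 0.9989). Ikzf2 encodes Helios, an Ikaros family factor of regulatory T cells, and was at 44.9, 35.6 and 48.3 TPM in CD4SP and at 5.28, 5.89 and 4.76 TPM in CD8SP libraries. The 5 most like Foxp3 alone were Rmdn2 (r 0.9993), Hdac1, Sertad2, Eml4 and Pdha1 (r 0.9955), none of which was called. Rmdn2 was at 7.66, 1.73 and 8.60 TPM in CD4SP libraries, so it shares the low value in replicate 2. Without that library none of these 5 remained among the 5 most like Foxp3, and Tinf2 (r 0.9998) led. These r values come from 5 or 6 libraries in 2 groups, searched over 10476 genes, and describe likeness of pattern only.

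Genes that accompany Foxp3 in regulatory T cells mostly moved with the 7 called members. Of 30 such genes, 28 were tested, and 21 were called higher in CD4SP and 0 lower. Their median log2(TPM + 1) difference was 2.25 (2.0 without the 2 listed at 0 in CD8SP), against 0.284 for all tested genes. Leaving out CD4SP replicate 2 also gave 21 calls. For this and each later list, the background is the 7.92% called higher and the 1.8% called lower among all tested genes. Some genes are in more than 1 list and are counted in each. The other 7 tested genes of the list, Lag3, Tigit and Tnfrsf9 among them, were not called.

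Among the transcription factors of that list, Ikzf2 rose by 2.79 (SE 0.187, limma adjusted p 5.41e-05) in log2(TPM + 1), and Ikzf4, encoding Eos, a Foxp3 partner, by 2.30. Among its TNF receptors, Tnfrsf4, encoding the costimulatory receptor OX40, was at 1201, 1157 and 1124 TPM in CD4SP and at 44.3, 46.4 and 37.0 TPM in CD8SP libraries. Its difference of 4.74 (SE 0.120, limma adjusted p 2.381e-07) was nearly the same size as that of Lrrc32. Tnfrsf18, encoding GITR, was called with a difference of 2.20.

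Several secreted products of the list were called higher in CD4SP cells, while Fgl2, with a log2(TPM + 1) difference of 0.79, was not called. Il10, encoding a cytokine that restrains inflammation, was at 54.1, 24.7 and 53.6 TPM in CD4SP and at 1.74, 2.45 and 11.2 TPM in CD8SP samples (log2(TPM + 1) difference 3.13, SE 0.549, limma adjusted p 0.006084). CD4SP replicate 2 held the lowest Il10 of its group, yet above every CD8SP library. Ebi3, the shared chain of IL-35 and IL-27, was at 64.6, 54.7 and 61.7 TPM in CD4SP and listed at 0 in all CD8SP libraries. Areg, encoding the tissue repair factor amphiregulin, was at 9.46, 17.3 and 9.37 TPM in CD4SP and likewise listed at 0 in CD8SP. Penk, which encodes enkephalin precursor, was called with a log2(TPM + 1) difference of 5.28 (SE 0.230). Chemokine receptors followed the same direction, with Ccr8 at 4.40 (SE 0.199) and Ccr4 at 3.78 (SE 0.247).

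**Figure D4:**
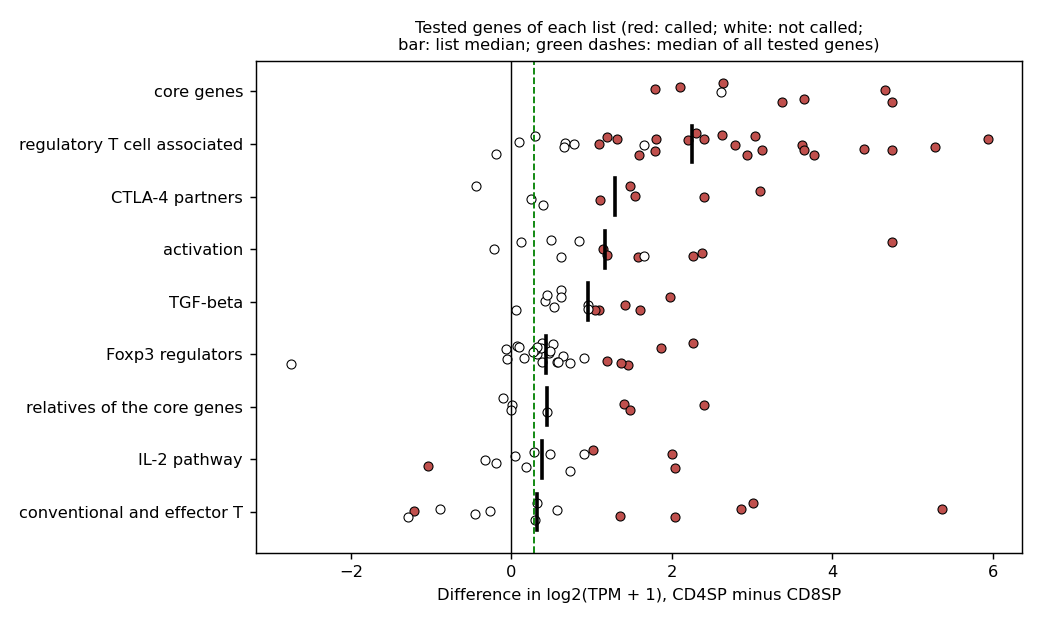
Difference in log2(TPM + 1), CD4SP minus CD8SP (horizontal axis), of every tested gene of the core set and the 8 lists (rows); red points were called, white points were not, short bars mark list medians and the dashed line the all-gene median of 0.284. The list of genes that accompany Foxp3 has 21 red points of 28 and a median of 2.25, while the list of Foxp3 regulators has 5 of 26 and a median of 0.43.

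Factors that act on the Foxp3 gene or protein showed fewer calls. Of 28 genes, 26 were tested and 5 were called, all higher in CD4SP, with a median log2(TPM + 1) difference of 0.43. Nr4a1, an immediate early nuclear receptor that can act at Foxp3, differed by 2.26 (SE 0.185) and Gata3 by 1.86 (SE 0.183). Runx1, which binds Foxp3 regulatory DNA with its partner CBF-beta, was at 12.8, 12.3 and 10.9 TPM in CD4SP and at 3.90, 4.15 and 3.23 TPM in CD8SP libraries, a difference of 1.45 (SE 0.202). Reads of the native Runx1 gene and of the Runx1-p2a-Hoxa9 cassette cannot be told apart in this table. Nfatc1 was called at 1.37 and Irf4 at 1.19. Irf4 was not called without CD4SP replicate 1, CD4SP replicate 3, CD8SP replicate 2 or CD8SP replicate 3, with differences of 0.88 to 1.25 and limma adjusted p of 0.07314 to 0.1025. Its call was also lost after median-of-ratios rescaling (0.91) and quantile normalization (0.84). The same held with no filter and with CD8SP replicates 1 and 2 averaged. Ets1, singled out after its values were seen, was at 230, 3.23 and 2.94 TPM in CD4SP and near 105 TPM in CD8SP libraries, with a mean there of 104.7 ± 3.23 TPM (SD, n = 3). It shows that wide spread within CD4SP was not limited to Foxp3 or to replicate 2.

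The other chains of the IL-2 receptor were not called. Il2rg, the chain shared by several cytokine receptors, was at 1331, 1082 and 1320 TPM in CD4SP and at 1096, 1147 and 1041 TPM in CD8SP libraries, with groups that overlap and a limma adjusted p of 0.2883. Il2rb, the signalling beta chain, was at 101, 87.3 and 108 TPM in CD4SP and at 114, 117 and 106 TPM in CD8SP cells, with limma adjusted p 0.3043. Of the 12 genes of the IL-2 pathway, 3 were called higher in CD4SP and 1 lower, with a median of 0.38. Il2 itself was at 10.97, 17.7 and 11.1 TPM in CD4SP and at 3.45, 3.37 and 1.02 TPM in CD8SP libraries, a difference of 2.03 (SE 0.355, limma adjusted p 0.005933). Cish, a feedback inhibitor induced by STAT5, differed by 1.999 (SE 0.146). The survival gene Bcl2 was the one called lower, with a difference of -1.03 (SE 0.134). Bcl2 came to -0.98 without CD4SP replicate 1 and to -0.96 without CD8SP replicate 2, just short of 2-fold. The list had 2 calls without CD8SP replicate 2, when Socs1 (limma adjusted p 0.06616) was not called either. Socs1, called higher in the main fit, lost its call in 12 alternatives, at differences of 0.69 to 1.12. Among these were 5 fits without 1 library, median-of-ratios rescaling and quantile normalization.

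Partners of Ctla4 gave 5 calls of 8 genes, all higher in CD4SP, with a median of 1.29. Icos was at 471, 334 and 432 TPM in CD4SP and at 82.8, 82.4 and 65.3 TPM in CD8SP libraries. Cd28, the activating receptor that shares its ligands with CTLA-4, differed by 1.48 (SE 0.233) and Trat1, an adaptor that helps bring CTLA-4 to the surface, by 3.10 (SE 0.243). The ligand gene Cd86 was at 16.2, 13.5 and 18.3 TPM in CD4SP and at 22.6, 23.5 and 19.9 TPM in CD8SP libraries and was not called. Without CD4SP replicate 3, or without CD8SP replicate 2, the calls numbered 3, and the genes lost were Cd80 (limma adjusted p 0.09817 and 0.1049) and Lrba (0.03937 at under 2-fold, and 0.05286). Median-of-ratios rescaling and quantile normalization also gave 3 calls.

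Around Lrrc32, the TGF-beta genes gave 5 calls of 13 tested, all higher in CD4SP, with a median of 0.95. Tgfbr1, a signalling receptor, differed by 1.98 (SE 0.230), Tgfbr3 by 1.42 (SE 0.235) and the ligand gene Tgfb3 by 1.597 (SE 0.296). Tgfb1, the ligand best known to dock on GARP, was at 0.455, 0.790 and 1.198 TPM in CD4SP and listed at 0 in CD8SP libraries, and it did not pass the filter. Calls in this list numbered 3 without CD4SP replicate 3, without CD8SP replicate 2 and without CD8SP replicate 3. They also numbered 3 after median-of-ratios rescaling or quantile normalization, and 2 with a filter of 5 TPM.

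Relatives of the members by sequence or family gave 3 calls of 7 tested genes of 13, with a median of 0.45. Among these calls, Cd28 and Icos were already counted with the partners of Ctla4. Foxp1, a forkhead relative of Foxp3, was at 16.6, 14.5 and 17.8 TPM in CD4SP and at 17.0, 16.7 and 14.8 TPM in CD8SP libraries and was not called. Nrros, a relative of Lrrc32 that also carries latent TGF-beta, was at 60.0, 49.9 and 46.4 TPM in CD4SP and at 55.7, 60.3 and 41.7 TPM in CD8SP libraries, so the groups overlapped where those of Lrrc32 did not. Gsn, the actin-severing relative of Capg, differed by 1.40 (SE 0.207).

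Genes of conventional and effector T cells were called in both directions, 5 higher and 1 lower of 13 tested, with a median of 0.32. Cd40lg, the helper cell ligand for CD40, was at 40.1, 53.4 and 43.1 TPM in CD4SP and at 0, 0.389 and 0 TPM in CD8SP libraries. The cytokine genes Il4, at 8.16, 6.62 and 4.50 TPM, and Il17a, at 8.66, 4.66 and 11.3 TPM in CD4SP libraries, were also called higher. The CD4SP libraries thus held transcripts of helper cells beside those of the core genes. Il7r, which is usually low in regulatory cells, was at 392, 338 and 434 TPM in CD4SP and at 316, 342 and 271 TPM in CD8SP libraries and was not called. Dapl1 was the gene called lower, with a difference of -1.21 (SE 0.299). It was not called without CD4SP replicate 1, CD4SP replicate 3 or CD8SP replicate 3, at differences of -1.26 to -0.90 and limma adjusted p of 0.05579 to 0.08054.

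Of 12 tested activation genes, 6 were called higher in CD4SP and 0 lower, with a median of 1.17. Tnfrsf4 was already counted with the genes that accompany Foxp3, and Nr4a1 and Irf4 with the Foxp3 regulators. Irf4 lost its call in 8 alternatives and Egr2 in 1, the pseudocount of 0.1. Egr1, an immediate early gene, was at 26.5, 32.3 and 32.5 TPM in CD4SP and at 9.27, 10.03 and 9.11 TPM in CD8SP libraries. Cd44, a marker of antigen experience, differed by 1.15 (SE 0.149) and by 0.84 to 0.99, under 2-fold, with the 3 other scalings. The proliferation gene Mki67 was not called. The part of activation in the levels of Il2ra, Ctla4 and Izumo1r was not tested.

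Across the 8 lists, 107 of 123 different genes were tested, of which 46 were called higher in CD4SP and 2 lower, beside 7.92% and 1.8% of all tested genes.

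Markers of other cells were checked beside these results. T cell genes (Cd3d, Cd3e, Cd3g and Lck) summed to 3773 to 3907 TPM in CD4SP cells and to 3293 to 3745 TPM in CD8SP cells. Every library listed Ms4a1 and Pax5, of B cells, and S100a8 and S100a9, of neutrophils and monocytes, at 0. The 7 myeloid genes summed to 17.7 to 32.9 TPM in CD4SP cells and to 20.7 to 24.2 TPM in CD8SP cells, ranges that overlap. Within that sum Lyz2 was called higher in CD4SP, at 30.9, 17.1 and 18.3 TPM against 8.33, 6.87 and 3.64 TPM (limma adjusted p 0.008718), and Cd68 was called lower (limma adjusted p 0.01271). Macrophages and dendritic cells also express Capg and Nrp1, and the 8 dendritic cell genes summed to 91.3 to 117 TPM in CD4SP cells and to 45.2 to 54.8 TPM in CD8SP cells. Of these, H2-Aa, H2-Ab1 and Cd74 were called higher in CD4SP and Itgax lower, Clec9a was listed at 0 in all libraries, and Itgax was at 0.946, 0.0821 and 0 TPM in CD4SP. The part of the myeloid and class II genes in the results for the members, Capg and Nrp1 included, was not tested.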

How the data were processed

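The authors aligned reads to mm10 with HISAT2 and used StringTie to estimate gene levels, which they deposited as TPM with 1 column per library. cDNA had been amplified from 1000 sorted cells with a whole-transcriptome kit, and libraries were made with a transposase kit. TPM keeps no sequencing depth, so no interval or floor for counting error is given. The 8 members and the gene lists were chosen with earlier results of these data known. Groups came from the sample titles. Genes at 1 TPM or more in at least 3 of 6 libraries were fitted as log2(TPM + 1), which makes changes of low genes look smaller. The fit used limma 3.58.1 in R 4.3.3 (eBayes with trend, population as the only term). It was first run on simulated data with the CD8SP spread in both groups, which does not cover a CD4SP library that stands apart. A call needed an adjusted p under 0.05 and over 2-fold. Members were named with every library's value, and list genes by their calls. Copies were searched with blastn 2.17.0 at 95% identity over 200 bases. Alternatives were a pseudocount of 0.1, no filter or one of 5 TPM, other scalings, no trend, library weights, a replicate block, no fold threshold, averaging CD8SP replicates 1 and 2 (r 0.987, the closest pair), and leaving out each library.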

Additional observations from a re-analysis of the deposited data

How the results depend on the processing

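The 7 called members kept their call and direction in each of the 16 alternative fits run for each of them, with log2(TPM + 1) differences between 1.49 and 1.83 for Capg and between 4.47 and 5.58 for Lrrc32. Foxp3 kept its direction and was called in 3 alternatives only, at 3.65 with library weights (limma adjusted p 0.001533), at 2.61 with the replicate block (0.04375) and without CD4SP replicate 2. Leaving out 1 library moved it between 1.83 and 4.06. Members called numbered 7 or 8 in every fit, and called genes over all lists 40 to 58 around 48. Of those 48 genes, 36 kept their call in every fit that tested them, 12 lost it in at least 1, and none reversed. Among all 107 tested list genes 21 changed sign in some fit, none of them called. Without the fold threshold 2183 of all tested genes were called, against 1019. The gap of Foxp3 in CD4SP replicate 2 was -4.11 after median-of-ratios rescaling and -4.53 with a pseudocount of 0.1.

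Libraries with the same number in CD4SP and CD8SP were not shown to be paired. Their deviations from the group means correlated at 0.0515, -0.0168 and 0.0887, and 3 of 6 libraries lay closest to their own number. With the replicate block, 997 genes were called against 1019, and calls in the TGF-beta list numbered 3 against 5.

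Depth is unknown, so levels near 0 in CD8SP cannot be told from missed transcripts, and 3 libraries a group limit the precision.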
